A study of Mus musculus with 10 samples.

Results

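The myelin genes Pmp22, Mbp, Mag, Mal, Cnp and Mobp were followed in mouse cochlea, the hearing organ of the inner ear, with and without exposure to loud noise, in 2 strains known to differ in their sensitivity to it. Every probe set (a group of short probes that reads 1 transcript on the array) with 1 of these 6 symbols in the platform annotation was taken, which gave 12 of the 12488 probe sets, for 6 of the 8251 genes named on the array. RNA was measured on 10 one-colour Affymetrix arrays, each carrying a pool of 8 female mice aged 10 weeks. There were 2 arrays of noise-exposed and 2 of control B6.CAST mice, and 3 arrays of noise-exposed and 3 of control 129X1/SvJ mice. Noise was an octave band at 10 kHz and 105 dB SPL for 1 h, with tissue taken 6 h later, and control mice also spent time in the chamber, in a sham exposure without noise. By their names, 129X1/SvJ is an inbred strain and B6.CAST a strain of B6 background with donor segments from CAST mice. Pooling hides differences between single mice. In bulk tissue, fewer cells of a type and less RNA per cell cannot be told apart. Whether sequence differences between the strains under the probes changed a signal was not tested.

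Myelin is the stack of glial membrane that wraps axons and speeds conduction. Schwann cells make it in the peripheral nervous system, spiral ganglion included, and oligodendrocytes make it in the central nervous system, which the auditory nerve meets at a glial transition zone. By textbook knowledge Pmp22 belongs to peripheral myelin, Mobp to central myelin, and Mbp, Mag, Mal and Cnp to both. Egr2 and Sox10 are the transcription factors that drive the myelin genes in Schwann cells.

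The peripheral gene Pmp22 and the shared genes Mbp, Mal and Mag were measured well enough to test, and Cnp and the central gene Mobp were not. Of the 12 probe sets, 6 (of Pmp22, Mag, Mbp and Mal) passed the filter, which left out the lowest 30% of probe sets, those with a mean equal to a signal of 42.9 or less. The 6 probe sets left out were the second of Pmp22 (signal 3.6 to 7.2), that of Cnp and all 4 of Mobp. None of the 6 tested probe sets passed limma at an adjusted p of 0.05 in any of the 7 comparisons. In the mean strain difference the brighter probe set of Mag and that of Pmp22 came closest, both lower in B6.CAST, with adjusted p = 0.0511 and 0.0516.

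Some arrays stood apart. The 3′ to 5′ ratio of the Gapdh control probe sets, a sign of RNA quality, was 29.2 on control array 2 of 129X1/SvJ and 6.94 on noise array 1 of B6.CAST, and 0.790 to 1.40 on the others. Noise array 1 of 129X1/SvJ resembled the others least (mean r of 0.91, with 0.943 to 0.955 on the remaining arrays). Of the Schwann cell markers, Sox10, Erbb3, S100b and Gjb1 were on the array and passed the filter (4 of 9 listed).

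Upstream sequence is shown for Mobp, whose signal was spread most widely between arrays, and for Mag, which had the largest strain difference of the tested members. These are the 250 bases before the gene's start, read 5′ to 3′ on the gene's strand, from RefSeq on GRCm38.p6. Capitals mark matches to ACAAAG, a core that SOX proteins bind, on either strand. All matches in both windows lie on the opposite strand and so read CTTTGT.
Mobp, chr9:120149492-120149741 (+): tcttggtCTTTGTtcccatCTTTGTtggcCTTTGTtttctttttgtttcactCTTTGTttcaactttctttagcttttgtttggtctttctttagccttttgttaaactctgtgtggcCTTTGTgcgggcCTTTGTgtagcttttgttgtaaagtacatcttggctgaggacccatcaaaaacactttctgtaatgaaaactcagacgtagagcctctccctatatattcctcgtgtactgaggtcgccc
Mag, first of 3 windows, chr7:30914864-30915113 (-): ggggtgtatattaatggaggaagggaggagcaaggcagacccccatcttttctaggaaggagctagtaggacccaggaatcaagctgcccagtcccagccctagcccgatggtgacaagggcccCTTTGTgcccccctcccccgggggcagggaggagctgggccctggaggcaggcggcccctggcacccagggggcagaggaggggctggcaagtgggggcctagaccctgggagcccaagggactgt
The Mobp window holds 6 matches, at positions 8 to 131 counted from its 5′ end, and the Mag window holds 1, at position 125. Of the other Mag windows, window 2 overlaps the one shown and holds the same match, and window 3 holds none. Among all 32851 upstream windows of this length, 16.5% hold at least 1 match. Only 1 window (0.00304%), that of Mobp itself, holds 6 or more. The Cnp window holds 1 match, and none lies in the 4 windows of Pmp22, the window of Mal or the 5 windows of Egr2. The EGR motif GCGTGGGCG, searched on both strands, was in none of the windows of Pmp22, Mag, Mal, Cnp, Mobp or Egr2 and in 0.536% of all windows. The motifs do not overlap. A match is a run of letters and not a measured binding site.

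Pmp22, the member of peripheral myelin, encodes a membrane protein of compact Schwann cell myelin, on chromosome 11. Which cells its RNA came from cannot be told in bulk tissue. Its signal was 5939 and 4265 on the noise arrays of B6.CAST, against 5031.5 and 4149 on the control arrays of that strain. In 129X1/SvJ it was 6079, 6908 and 6736 with noise, against 6839.9, 5875 and 6319.7 without. The ranges with and without noise overlapped in both strains. The means were 5102 ± 1184 in noise-exposed and 4590 ± 623.8 in control B6.CAST (SD, n = 2 each), and 6574 ± 437.2 in noise-exposed and 6345 ± 483 in control 129X1/SvJ (SD, n = 3 each). With noise, limma gave a log2 difference of 0.04 ± 0.14 in 129X1/SvJ (SE, 95% confidence interval -0.27 to 0.35, adjusted p = 0.921) and of 0.14 ± 0.17 in B6.CAST (interval -0.24 to 0.52, adjusted p = 1).

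Between the strains, all 4 B6.CAST arrays lay below all 6 129X1/SvJ arrays for Pmp22 after normalisation. In the deposited signals, noise array 1 of B6.CAST (5939) lay above control array 2 of 129X1/SvJ (5875), and these are the 2 arrays with the high Gapdh ratio. Over both conditions Pmp22 was lower in B6.CAST by a ratio of 0.73 (log2 difference -0.45 ± 0.11 by limma, interval -0.69 to -0.21, adjusted p = 0.0516), which missed the threshold. The difference was -0.40 ± 0.16 with noise (adjusted p = 0.355) and -0.50 ± 0.16 without (adjusted p = 0.248). Pmp22 passed in the mean strain difference when noise array 1 of B6.CAST (adjusted p = 0.039), control array 1 of B6.CAST (adjusted p = 0.0455) or noise array 1 of 129X1/SvJ (adjusted p = 0.0495) was left out. It did not pass without both arrays of high Gapdh ratio (-0.57, adjusted p = 0.073).

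**Figure D1:**
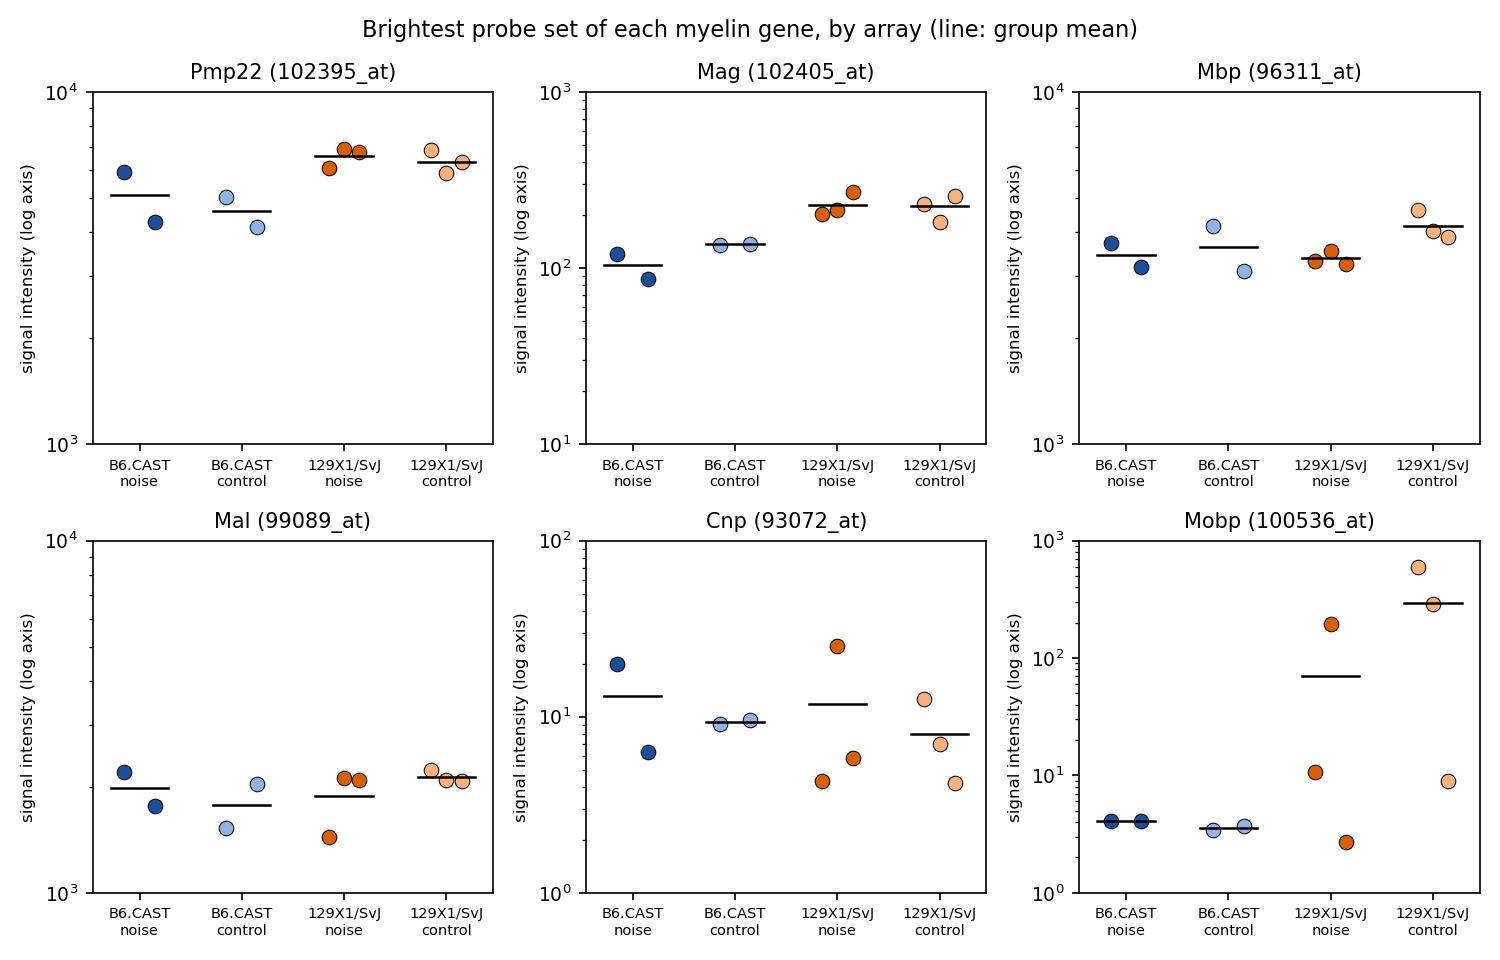
Signal intensity (log axis, scaled separately in each panel) of the brightest probe set of each myelin gene, 1 point per array and a line at the group mean, for noise-exposed and control B6.CAST and noise-exposed and control 129X1/SvJ mice. All 4 B6.CAST arrays of Mag lie below all 6 129X1/SvJ arrays, and Mobp reaches 591.9 on a single control array of 129X1/SvJ.

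Mag encodes a sialic acid binding protein of the inner myelin membrane that faces the axon, on chromosome 7. Its brighter probe set read 120.0 and 87.2 in noise-exposed B6.CAST, against 134.6 and 137.9 in control B6.CAST. In 129X1/SvJ it read 202.7, 213.5 and 268.8 with noise, against 230.2, 183.7 and 258.1 without. The strains did not overlap on any array, while the noise and control arrays of 129X1/SvJ did. In B6.CAST both noise arrays were below both controls in the deposited signals but not after normalisation, where noise array 1 (7.25 on the log2 scale) lay above control array 1 (7.15). The log2 difference with noise was -0.34 ± 0.30 in B6.CAST (adjusted p = 1), and in 129X1/SvJ it was -0.09 ± 0.24 (adjusted p = 0.903). The strain difference was -0.91 ± 0.27 with noise (adjusted p = 0.184) and -0.67 ± 0.27 without (adjusted p = 0.388), and -0.79 ± 0.19 over both conditions (ratio 0.578, interval -1.21 to -0.37, adjusted p = 0.0511).

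The dimmer Mag probe set did not show this difference. It read 64.9 and 50.5 in noise-exposed and 72.5 and 82.0 in control B6.CAST, and 71.2 to 86.0 in noise-exposed and 60.6 to 90.7 in control 129X1/SvJ, so the strains overlapped. Its mean strain difference was -0.08 ± 0.21 (interval -0.53 to 0.38, adjusted p = 0.892), and the probe sets of Mag correlated at r = 0.576 over 10 arrays. The call for the brighter Mag probe set also turned on single arrays: it passed without noise array 1 of B6.CAST (-0.94, adjusted p = 0.0415) or noise array 1 of 129X1/SvJ (-0.87, adjusted p = 0.0319). Without both arrays of high Gapdh ratio it was -0.98 and did not pass (adjusted p = 0.0705).

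Mbp, the basic protein that holds the cytoplasmic faces of compact myelin together, is made by both kinds of myelinating cell (chromosome 18). Its brighter probe set read 3309, 3545 and 3252 in noise-exposed 129X1/SvJ, against 4612.5, 4023 and 3879.5 in control 129X1/SvJ. In B6.CAST it read 3726 and 3179 with noise, against 4154 and 3111 without. In 129X1/SvJ every noise array was below every control array, and in B6.CAST the groups overlapped. The share of all probe sets that separate by noise in this way was not counted. The log2 difference with noise in 129X1/SvJ was -0.28 ± 0.14 (interval -0.59 to 0.03), a ratio of 0.825, and missed the threshold (adjusted p = 0.473 by limma).

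In B6.CAST the same difference was -0.08 ± 0.17 (adjusted p = 1), and the difference between the strains' noise effects for Mbp was 0.20 ± 0.22 (adjusted p = 0.997). Leaving out each array in turn left the value in 129X1/SvJ between -0.33 and -0.20. The dimmer probe set of Mbp gave -0.29 ± 0.20 (adjusted p = 0.571) in 129X1/SvJ, but noise array 1 (547.3) lay within the control range of 482.9 to 566.6, above the other noise arrays at 368.0 and 351.3. That is the array that stood apart. In the mean strain difference Mbp gave -0.11 ± 0.11 and -0.10 ± 0.16 for the probe sets (adjusted p = 0.706 and 0.815).

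Mal, a proteolipid that sorts membrane to myelin and to the apical surface of epithelial cells (chromosome 2), read 2203 and 1769 in noise-exposed B6.CAST, against 1526 and 2029 in control B6.CAST. In 129X1/SvJ it read 1439, 2122 and 2086 with noise, against 2228, 2094 and 2076 without. The groups overlapped in both strains, and the low value of 1439 came from the array that stood apart. With noise the log2 difference was -0.17 ± 0.17 in 129X1/SvJ (adjusted p = 0.701) and 0.16 ± 0.21 in B6.CAST (adjusted p = 1). Over both conditions the strain difference of Mal was -0.10 ± 0.13 (interval -0.40 to 0.19, adjusted p = 0.766).

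**Figure D2:**
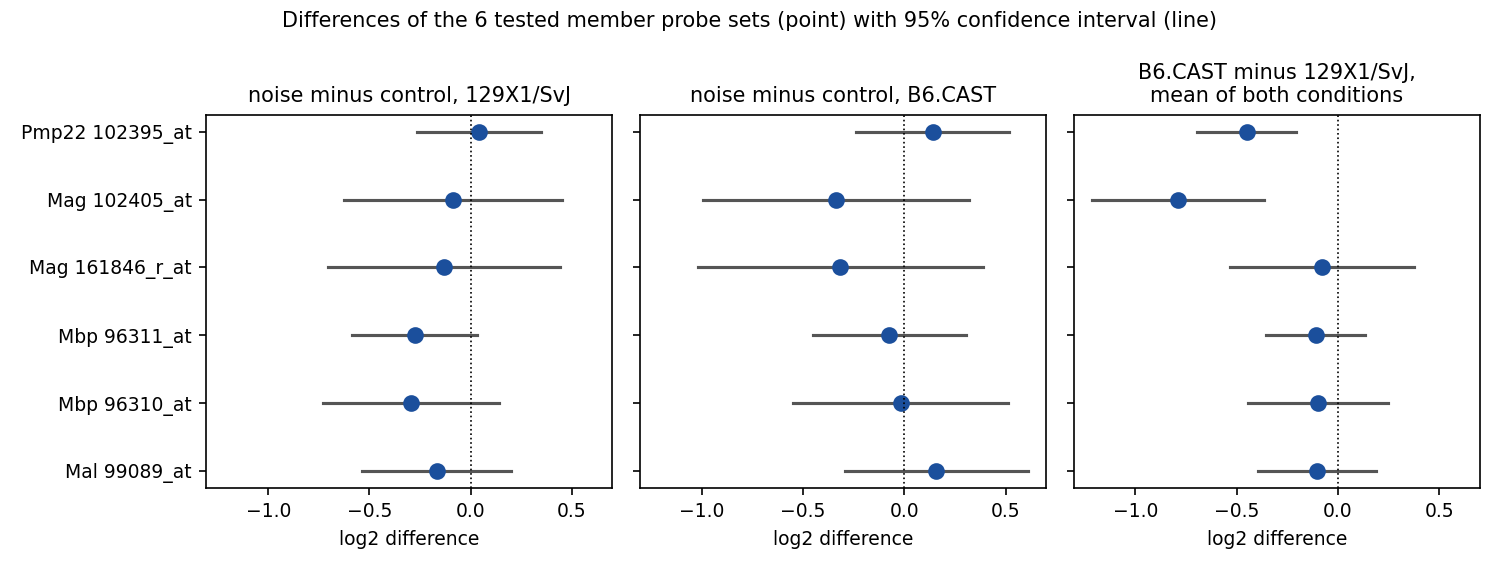
Log2 difference (horizontal axis) of the 6 member probe sets that passed the filter, with a line for the 95% confidence interval, for noise minus control in 129X1/SvJ, noise minus control in B6.CAST, and B6.CAST minus 129X1/SvJ over both conditions. Every interval for noise includes 0, and those of Pmp22 and of 1 Mag probe set lie below 0 for the strains.

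Cnp, an enzyme of the cytoplasm-filled parts of myelin (chromosome 11), read 20.0 and 6.3 in noise-exposed and 9.1 and 9.6 in control B6.CAST. In 129X1/SvJ it read 4.3, 25.1 and 5.8 with noise, against 12.6, 7.0 and 4.2 without. These are low signals on every array, in all 4 groups, and give no order of the groups. Without the filter, the log2 difference with noise was 0.04 ± 0.30 in 129X1/SvJ (adjusted p = 0.976) and the mean strain difference was 0.15 ± 0.24 (adjusted p = 0.857).

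Mobp, a structural protein of oligodendrocyte myelin and the member of central myelin (chromosome 9), varied far more than the peripheral and shared genes. Its signal was 4.1 and 4.1 in noise-exposed B6.CAST, against 3.4 and 3.7 in control B6.CAST. It was 10.7, 195.9 and 2.7 in noise-exposed 129X1/SvJ, against 591.9, 286.5 and 9.0 in control 129X1/SvJ. So 3 of the 6 129X1/SvJ arrays, 1 with noise and 2 without, were far above the other 7 arrays, and the spread lay within groups. The means were 69.8 ± 109 with noise and 296 ± 292 without in 129X1/SvJ (SD, n = 3 each).

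No comparison of Mobp passed the test. In a fit without the filter, limma gave -1.86 ± 1.14 with noise in 129X1/SvJ (interval -4.38 to 0.65, adjusted p = 0.609) and 0.01 ± 1.39 in B6.CAST (adjusted p = 1). The strain difference was -1.16 ± 1.27 in noise-exposed (adjusted p = 0.858) and -3.04 ± 1.27 in control mice (interval -5.85 to -0.22, adjusted p = 0.461). Leaving out single arrays moved the value for noise in 129X1/SvJ between -3.26 (without control array 3) and -0.93 (without control array 1), and that for the strains in control mice between -4.43 and -2.10, without the same arrays. The other 3 Mobp probe sets stayed at or below 29.0 on all arrays, so they do not repeat the high signals of the first. The next brightest reached its highest values, 29.0 and 21.8, on control arrays 1 and 2 of 129X1/SvJ.

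Some other genes of central glia were high on arrays of high Mobp and some were not. Mog, a surface protein of oligodendrocyte myelin, read 50.3 and 51.1 on control arrays 1 and 2 of 129X1/SvJ, but 4.4 on noise array 2, where Mobp was 195.9, and 2.8 to 16.7 on the other 7 arrays. Gfap, the intermediate filament of astrocytes that some Schwann cells also make, read 204.1, 191.7 and 114.9 in noise-exposed and 188.8, 184.2 and 107.7 in control 129X1/SvJ, against 81.2 to 98.2 in B6.CAST. It was thus high on the 3 arrays of high Mobp, where a second Gfap probe set, below the filter, read 13, 8.9 and 23.6. It was also high on noise array 1, where Mobp was 10.7. Aqp4, the water channel of astrocytes, was highest on that noise array 1 of 129X1/SvJ (170.7) and read 56.7, 73.3 and 44.3 on the 3 arrays of high Mobp, within the 31.9 to 170.7 of the others. Slc1a2, a glutamate transporter of astrocytes, read 24.1, 75.8 and 44.0 on those 3 arrays, within the 16.8 to 131.2 of the others. Averaged on the log2 scale, all 6 tested markers of astrocytes and central glia departed from the mean array by -0.065, 0.288 and 0.013 there. The departure was 0.3 on noise array 1 of 129X1/SvJ and -0.257 to 0.129 on the remaining arrays. By Pearson r of normalised log2 values over 10 arrays, among 6502 genes, those closest to Mobp were Ntsr2, a neurotensin receptor known from brain astrocytes (r = 0.881), Sox7 (r = 0.88) and Vcam1 (r = 0.88). Ntsr2, chosen by this correlation, read 84.9 on noise array 2 and 141.2 and 104.6 on control arrays 1 and 2 of 129X1/SvJ, and 15.4 to 50.7 elsewhere. Cldn11 is a claudin of oligodendrocyte myelin that the basal cells of the stria vascularis also make. Its brighter probe set was higher in B6.CAST within each condition, at 2249 and 2695 with noise and 2884 and 2904 without. In 129X1/SvJ it read 1398 to 2163 with noise and 1941 to 2589 without, and 1916, 2369 and 2589 on the 3 arrays of high Mobp. The strain difference of this probe set did not pass limma with noise (adjusted p = 0.473) or without (adjusted p = 0.614). Over both conditions it was 0.37 ± 0.14 and did not pass either (adjusted p = 0.205). The share of all probe sets that separate by strain within each condition was not counted. The dimmer Cldn11 probe set read 34.3 to 48.9 in B6.CAST and 35.3 to 63.4 in 129X1/SvJ, so the strains overlapped. The Gapdh ratio was high on 1 of the 3 arrays with high Mobp. The part of RNA from other central glia in the Mobp signal was not tested.

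**Figure D3:**
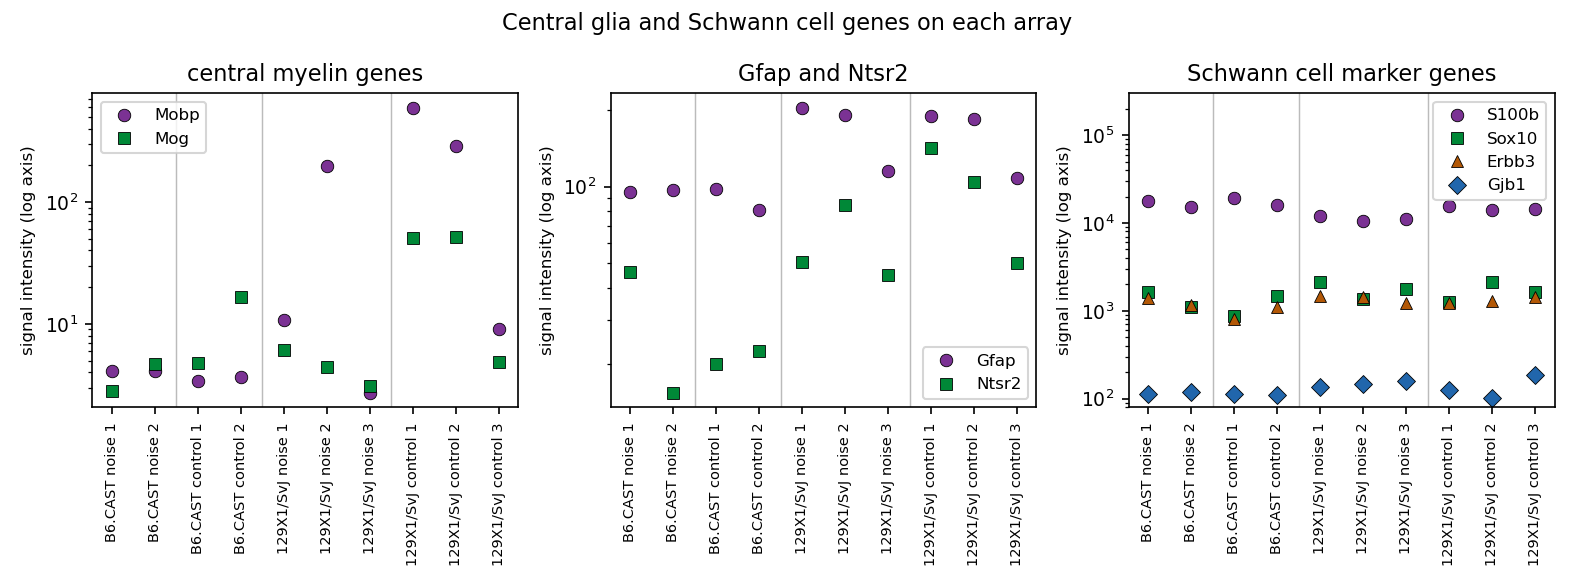
Signal intensity (log axis) on each of the 10 arrays, ordered as noise-exposed B6.CAST, control B6.CAST, noise-exposed 129X1/SvJ and control 129X1/SvJ, with grey lines between groups. Mobp stands out on 3 arrays of 129X1/SvJ and Mog on 2 of these, while the Schwann cell genes S100b, Sox10, Erbb3 and Gjb1 vary far less.

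In the noise comparisons, 0 of 6 member probe sets passed in 129X1/SvJ, in B6.CAST, in the mean noise effect and in the difference of noise effects, where limma called 0.506%, 0.046%, 0.46% and 0% of all 8695 probe sets. At an unadjusted p under 0.05 the member counts were also 0 in all 4, beside 11.5%, 2.105%, 7.63% and 2.97% of all probe sets. Of the 6 probe sets, 5 had a negative value for noise in 129X1/SvJ and 4 in B6.CAST, beside 55.0% and 48.8% of all. In 129X1/SvJ that count was 3 in the values as deposited and 6 after median centring, so no direction is given for the members together. Members that share a gene are not separate evidence.

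In the strain comparisons, 0 of 6 passed in noise-exposed mice, in control mice and over both conditions, where limma called 1.45%, 0.92% and 3.24% of all probe sets. In each of the 3, the bright probe sets of Pmp22 and Mag were the 2 with an unadjusted p under 0.05, beside 10.6%, 11.1% and 15.3% of all. All 6 had a negative value over both conditions, beside 52.1% of all probe sets. On 2 of 6, all 4 B6.CAST arrays were below all 6 129X1/SvJ arrays, as on 2.53% of all. Values of noise-exposed and control mice contribute to the mean strain difference together, so it is not separate from the other 2.

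Of the bone and blood, neuron, epithelium and muscle markers, 1 passed as higher and 1 as lower over both conditions. All 7 bone and blood markers had negative values over both conditions (median log2 difference -1.36). None passed the test and 6 had an unadjusted p under 0.05, beside 15.3% of all probe sets. In noise-exposed mice all 7 were negative (median -2.27), none passed and 6 had an unadjusted p under 0.05, beside 10.6% of all. In control mice alone 3 had positive and 4 negative values, with 0 at an unadjusted p under 0.05 and none passing limma. With noise these markers had a median of 0.63 in 129X1/SvJ (6 positive) and -1.12 in B6.CAST (7 negative), and none passed. Their summed signal was 7263 to 10032.5 in noise-exposed and 11671 to 29873 in control B6.CAST, against 22533 to 43717 in noise-exposed and 10708 to 33911 in control 129X1/SvJ. Markers of spiral ganglion neurons, whose axons Schwann cells wrap, had negative values in 8 of 13 (median -0.15, none passed), with sums of 31300 to 34960 in noise-exposed and 33539 to 33670 in control B6.CAST, against 35314 to 41275 in noise-exposed and 28278 to 37607 in control 129X1/SvJ. The 10 markers of cochlear epithelium and stria, of which 6 had positive values over both conditions (median 0.03) and 1 passed, summed to 49460.5 to 53850 in noise-exposed and 52069.5 to 56018 in control B6.CAST, against 37706 to 40508 in noise-exposed and 40231 to 44279 in control 129X1/SvJ, so the sums did not overlap between strains. The brightest markers weigh most in such a sum. The mean log2 deviation of the same 10 markers from the average of all arrays overlapped, at -0.14 to 0.05 in B6.CAST and -0.09 to 0.22 in 129X1/SvJ. Of 4 tested skeletal muscle markers, 1 passed as lower and 2 had positive values, and the 6 on the array summed to 435.4 to 511.1 in noise-exposed and 342.8 to 1081 in control B6.CAST, against 819.9 to 1140 in noise-exposed and 872.9 to 1160 in control 129X1/SvJ. The part of these cells in the strain difference of Pmp22 and Mag was not tested.

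The arrays also held 56 of 86 other listed genes of myelin and Schwann cells, 50 of them above the filter, and 5 passed in the mean strain difference, where 3.24% of all probe sets passed. Egr2 (chromosome 10), which is required for Schwann cells to myelinate, was the 1 that was lower in B6.CAST. Whether Egr2 lies in a donor segment of B6.CAST was not tested. It read 723.4 and 597.0 in noise-exposed and 481.0 and 494.7 in control B6.CAST, against 1206, 1266 and 1096 in noise-exposed and 968.5, 630.8 and 1119 in control 129X1/SvJ. The lowest 129X1/SvJ array, control array 2 with the high Gapdh ratio, overlapped with B6.CAST. Its mean strain difference was -0.83 ± 0.17 (adjusted p = 0.0189), and it held without both arrays of high Gapdh ratio (-1.02, adjusted p = 0.014). Leaving out noise array 2 of B6.CAST (adjusted p = 0.108), control array 1 (adjusted p = 0.0775) or control array 2 (adjusted p = 0.0638) ended the call. With noise, the mean effect on Egr2 was 0.43 ± 0.17 and did not pass (adjusted p = 0.58).

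The 4 that were higher in B6.CAST act in ceramide metabolism and at the cell membrane. Asah1, the acid ceramidase of lysosomes, read 1709 and 1451.5 in noise-exposed and 1484 and 1525 in control B6.CAST, against 541.7, 794.1 and 887.8 in noise-exposed and 945.9, 1051 and 750.9 in control 129X1/SvJ. No array of 1 strain reached the range of the other, and the mean strain difference was 0.90 ± 0.15 (adjusted p = 0.00581). Jam3, a junctional adhesion molecule, gave 0.63 ± 0.10 (adjusted p = 0.00582), with signals of 2183 to 2579 in B6.CAST and 1320 to 1725 in 129X1/SvJ.

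Epb41l2, a membrane skeleton protein, gave 0.69 ± 0.14 (adjusted p = 0.0241), and Cers2, which makes ceramides with very long chains, gave 0.54 ± 0.13 (adjusted p = 0.0497). Asah1 and Jam3 passed with each of the 10 arrays left out in turn, Epb41l2 in 5 of these fits and Cers2 in 1, the fit without noise array 3 of 129X1/SvJ. The call of Epb41l2 was lost without control array 2 of 129X1/SvJ and without each of the 4 B6.CAST arrays. In noise-exposed mice alone, Asah1 (1.07 ± 0.21, adjusted p = 0.0283) and Cers2 (0.94 ± 0.18, adjusted p = 0.0281) passed, and neither did without noise array 1 of B6.CAST, noise array 2 of B6.CAST or noise array 2 of 129X1/SvJ. Without both arrays of high Gapdh ratio, Asah1 and Jam3 missed the threshold in the mean strain difference (adjusted p = 0.0532 and 0.073), as did Epb41l2 and Cers2 (adjusted p = 0.15 and 0.231).

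In control mice alone none of the 50 genes passed and 9 had an unadjusted p under 0.05, beside 0.92% and 11.1% of all probe sets, led by Jam3 (0.60 ± 0.15, adjusted p = 0.109), Asah1 (0.74 ± 0.21, adjusted p = 0.196) and Egr2 (-0.81 ± 0.24, adjusted p = 0.204). In noise-exposed mice 2 passed and 12 had an unadjusted p under 0.05, beside 1.45% and 10.6% of all probe sets. There Jam3 followed Asah1 and Cers2, at 0.66 ± 0.15 (adjusted p = 0.0538).

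Over all 50 genes the median mean strain difference was -0.06, beside -0.01 over all probe sets, and 19 had an unadjusted p under 0.05, beside 15.3% of all. Schwann cell regulators had negative values in 12 of 17, of which Egr2 passed. Sox10, the partner of Egr2, gave -0.44 ± 0.20 (adjusted p = 0.324) and Erbb3, the receptor for neuregulin, -0.29 ± 0.13 (adjusted p = 0.308). S100b, in the same list, had the opposite sign, at 0.27 ± 0.10 (adjusted p = 0.214). The 4 Schwann cell markers on the array summed to 17431 to 20762 in noise-exposed and 18757 to 20920.5 in control B6.CAST, against 13606 to 15798 in noise-exposed and 17577 to 18360.5 in control 129X1/SvJ, a sum in which S100b weighs most. On the log2 scale, averaged over the 4 markers, arrays departed from the mean array by -0.30 to 0.12 in B6.CAST and -0.06 to 0.18 in 129X1/SvJ, so the strains overlapped. Genes of the basal lamina and its receptors had negative values in 7 of 8, with none passing and 3 with an unadjusted p under 0.05. Of shared membrane proteins 5 of 6 had positive values, and Jam3 passed. Lipid enzymes of myelin had positive values in 7 of 9, of which Asah1 and Cers2 passed, and genes of the node and axon contact had them in 4 of 8, of which Epb41l2 passed.

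**Figure D4:**
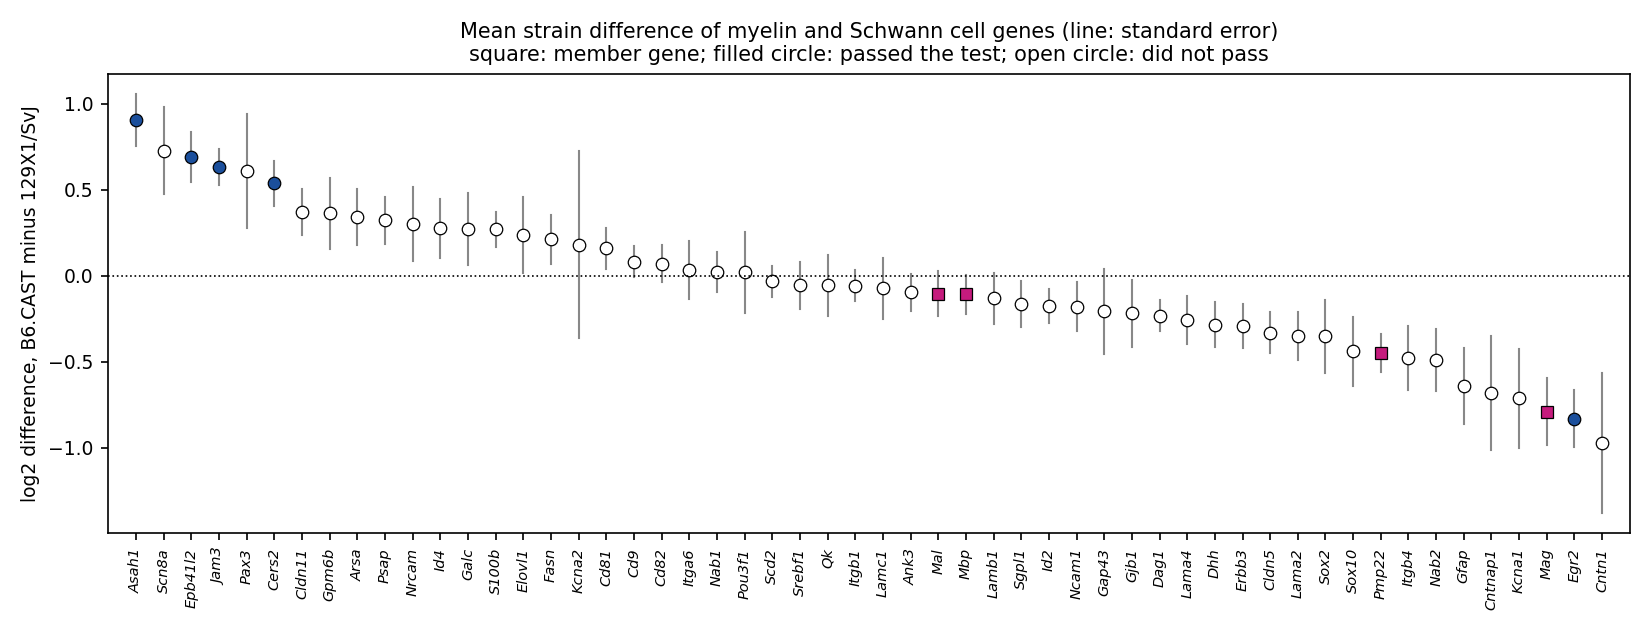
Mean strain difference (log2, B6.CAST minus 129X1/SvJ; line, standard error) of the 50 tested myelin and Schwann cell genes and the 4 tested member genes, ordered by value. Asah1, Epb41l2, Jam3 and Cers2 passed as higher and Egr2 as lower, and the member genes (squares) lie at -0.10 to -0.79.

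With noise, none of these 50 genes passed in 129X1/SvJ, in B6.CAST, in the mean effect or in the difference of effects, with 7, 0, 6 and 1 at an unadjusted p under 0.05, beside 11.5%, 2.105%, 7.63% and 2.97% of all probe sets. S100b, a calcium-binding protein of Schwann cells and other cells, had the smallest p in 129X1/SvJ. It read 12080, 10659 and 10979 with noise, against 15749, 14024 and 14535 without, so all noise arrays were below all controls (-0.48 ± 0.13, adjusted p = 0.213). As for Mbp, the share of all probe sets that separate in this way was not counted. Next were Cers2 (-0.59 ± 0.16, adjusted p = 0.234) and Id4, an inhibitor of transcription factors (0.64 ± 0.22, adjusted p = 0.33). In B6.CAST the smallest p belonged to Cldn5 (-0.41 ± 0.19), Nab2, a corepressor of EGR proteins (0.59 ± 0.28), and Erbb3 (0.41 ± 0.20), each with adjusted p = 1. In the mean noise effect the smallest p belonged to S100b (-0.29 ± 0.10) and Nab2 (0.51 ± 0.18), each with adjusted p = 0.499, and then to Egr2. For the difference of noise effects they belonged to Cers2 (0.81 ± 0.26), Id2 (-0.40 ± 0.20) and Qk (-0.69 ± 0.35), each with adjusted p = 0.997.

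Across the 10 arrays, Pmp22 and Mag followed each other most closely of the 15 pairs of members (r = 0.789), followed by Mbp and Mobp (r = 0.596) and Mal and Cnp (r = 0.577), and the lowest was Mag with Cnp (r = -0.025). These are descriptions over arrays that share strain, noise and RNA quality. The genes most like Pmp22 were Pqlc3 (r = 0.949), Epha8 (r = 0.937) and Fkbp1a (r = 0.933), and those most like Mag were Kif3c, a kinesin motor (r = 0.963), Ckmt1, a mitochondrial creatine kinase (r = 0.918), and Alad (r = 0.917). Those most like Mbp were Net1 (r = 0.9), Chchd3 (r = 0.896) and Sec22b (r = 0.882), and those most like Mal were Zfp524 (r = 0.947), Def8 (r = 0.946) and Zfp2 (r = 0.918). Cnp, at its low signals, was closest to Pclo (r = 0.88), Ripor2 (r = 0.877) and Fh1 (r = 0.852). No listed myelin or Schwann cell gene was among these.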

How the data were processed

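Total RNA was labelled with biotin as cRNA and hybridised to 1 array per pool of mice, per the labels. The authors deposited 1 linear intensity for each probe set and array. The values show that arrays had been scaled to 1 level (mean without the lowest and highest 2%: 500.3 on each of the 10 arrays). Which software did this is not given in the sources used here. Detection calls were not used. From these, log2(intensity + 16) was computed and quantile normalised. A log2 difference on this scale understates the change of dim genes. The 66 control probe sets and the lowest 30% of the others were left out, and 8695 were tested. Group means were fitted to all 10 arrays in limma 3.58.1 (R 4.3.3) (eBayes with trend). Adjusted p-values are Benjamini-Hochberg values over all tested probe sets, and 0.05 was the threshold. The 7 comparisons were noise minus control within each strain, the average and the difference of these effects, and B6.CAST minus 129X1/SvJ in noise-exposed mice, in control mice and over both. The fit was tested on simulated data. The brightest probe set stood for each gene outside the members. Probe sets with 1 symbol numbered 10855, and symbols were updated with the RefSeq table of GRCm38.p6.

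The members and gene lists were chosen with earlier results of these data known. Named were all members, Mog, Sox10, Erbb3 and Egr2, every listed gene that passed, the 3 listed genes with the smallest p per comparison and the 3 genes most like each member. Genes outside this rule (Cldn11, Gfap, Aqp4, Slc1a2 and, on the array plot, Gjb1) were chosen after their values were seen. The strain name on the third noise and the third control array of 129X1/SvJ has another spelling in the labels, and these arrays were kept with 129X1/SvJ. The labels call arrays of a group biological replicates, so p-values measure the spread between pools, and the number of arrays limits the precision. Alternatives covered scaling, pseudocount, filter, variance model, array weights, threshold, arrays in the fit, probe set, replicate number as a block and each array left out.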

Additional observations from a re-analysis of the deposited data

How the results depend on the processing

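No member passed in the noise comparisons, in the difference of noise effects or in either strain comparison by condition under any alternative run. In the mean strain difference 0 member probe sets passed. The count was 1 in the values as deposited, after median centring and with no variance trend, and 2 with a pseudocount of 64, with the lowest 50% left out, with robust moderation, with array weights and at a threshold of 0.10. With single arrays left out it ran from 0 to 2. The brighter probe set of Mag passed in 9 of 22 alternatives and Pmp22 in 7 of 21, always lower in B6.CAST. Among the other listed genes, 2 passed in the strain comparison of noise-exposed mice, beside 1.45% of all probe sets. That count was 0 after median centring, with only the arrays compared and with both arrays of high Gapdh ratio left out, 1 with no variance trend and 4 at a threshold of 0.10, and 0 to 2 with single arrays left out. In the mean strain difference 5 passed, 1 without both arrays of high Gapdh ratio and 2 to 5 with single arrays left out. The cause was not tested.

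Deviations of noise and control arrays from their group means correlated, for the same replicate number, at -0.15, -0.183 and -0.389 in 129X1/SvJ and at -0.169 in B6.CAST. The highest values with another number were 0.244, 0.093 and 0.308 in 129X1/SvJ and 0.169 in B6.CAST. Deviations cancel out within a group, so such values are not free, and with 2 arrays a group those of B6.CAST mirror each other. These values do not show a pairing by number. With the replicate block, 0 members, 0 listed genes in noise-exposed mice and 1 in the mean strain difference passed. With the numbers of the noise-exposed B6.CAST arrays crossed, an alternative chosen after seeing the data, 0 members, 1 listed gene in noise-exposed mice and 3 in the mean strain difference passed. Among the members, 40 of 755 values under an alternative changed sign, none of them past the threshold. Cnp and most Mobp signals were too low to compare.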
